A study of Mus musculus with 87 samples.

Results

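10 genes of interleukin signalling in the mouse liver were followed here: the receptor genes Il6ra, Il6st, Osmr, Lifr and Il1r1, the kinase and transcription factor genes Jak1, Jak2 and Stat3, and the inhibitor genes Socs1 and Socs3. They were chosen by symbol as the receptor, kinase and feedback genes of the IL-6 family and the IL-1 receptor; the rule used no measured value, but earlier results of these data were known when it was written. Each symbol named 1 protein-coding row among the 37991 gene rows of the expression table. Of these rows, 15396 exceeded a detection threshold of −1.5 on the log2 RPKM scale in at least 1 library (RPKM: read number scaled to transcript length and to library size) and were tested, and all 10 members were among them.

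IL-6 binds its receptor subunit (Il6ra) and then the shared signal-transducing subunit gp130 (Il6st). Oncostatin M and leukaemia inhibitory factor signal through gp130 paired with the subunits encoded by Osmr and Lifr. The receptor-bound Janus kinases JAK1 and JAK2 then phosphorylate STAT3, which enters the nucleus and activates acute-phase genes of the hepatocyte together with Socs3, whose product blocks the same receptors. Socs1 encodes a related inhibitor of Janus kinases, and Il1r1 the receptor for IL-1, which drives NF-κB and acts with IL-6 in the hepatic acute-phase response. IL-6 from Kupffer cells is a textbook priming signal of liver regeneration.

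The libraries were poly(A) RNA-seq of whole livers from male C57BL/6 mice aged 12 to 14 weeks that had been entrained for 2 weeks to 12 h of light with food given only in the dark. Partial hepatectomy (PH), the surgical removal of a large part of the liver, or a sham laparotomy that left the liver in place was performed under isoflurane at zeitgeber time (ZT) 2, that is 2 h after lights on. Post-PH livers were sampled at 1 h (X1, n = 6), 4 h (X4, n = 3), 10 h (X10, n = 6), 20 h (X20, n = 6), 28 h (X28, n = 3), 36 h (X36, n = 6), 44 h (X44, n = 3), 48 h (X48, n = 5) and 72 h (X72, n = 3), and at 1 week (X1W, n = 3) and 4 weeks (X4W, n = 2). Sham livers were sampled at 1 h (S1, n = 6), 4 h (S4, n = 5), 10 h (S10, n = 3), 20 h (S20, n = 3) and 48 h (S48, n = 3). Livers of mice that had no surgery were taken at ZT2 (C0, n = 9), at ZT6 (C4, n = 3) and 4 weeks later (C4W, n = 2). Every comparison with C0 used the same 9 livers, and those of X4, S4 and X28 with C4 used the same 3, so these comparisons are not independent of each other. C0 was sampled at ZT2 but S1 and X1 at ZT3, S10 and X10 at ZT12, X36 at ZT14 and S20, X20 and X44 at ZT22. Up to 72 h, only the PH against sham comparisons, those of X4, S4 and X28 with C4 and those of S48, X48 and X72 with C0 were therefore matched for the hour of day. The labels of X1W, X4W and C4W give weeks and no hour of day.

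The estimated depth of the 80 libraries ran from 12.2 to 48.8 M reads (median 26.7), at which the detection threshold stands for about 18.9 reads on a transcript of 2 kb. Hepatocyte markers were the most abundant marker list in every group. One C0 liver, replicate 8, stood apart, with summed macrophage and Kupffer cell markers of 209.7 RPKM against 13.8 to 43.3 RPKM in the other 8 C0 livers and summed neutrophil markers of 53.6 RPKM against 0.454 to 5.55. Member counts that rest on C0 are therefore also given without it. The study collected its animals in 3 experimental periods, and C4 came from a period that supplied none of the X4, S4 or X28 livers, so for those 3 comparisons period and surgery cannot be told apart. C0 livers came from all 3 periods, which no sham or post-PH group did, and S48, X44, X48, X72 and X1W came from only 1. Comparisons of sham and post-PH groups with C0 therefore mix period with surgery too. S10 and S20 came from 1 of the periods and X10 and X20 from that one and another, which the labels do not assign to replicates. The PH against sham comparisons at 10 h and 20 h therefore mix period with surgery as well. For these, values of Osmr at 20 h and of Il1r1 and Lifr at both times are also given for post-PH replicates 1 to 3 and 4 to 6 apart. S4 and X4 came from the same periods as X10 and X20, but the X4 livers analysed were replicates 4 to 6 only, against S4 replicates 1 to 5. Period may therefore be unbalanced at 4 h too, and in the changes of the PH against sham difference that include 4 h. In whole tissue, fewer cells of a type and less RNA per cell cannot be told apart either.

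In unoperated liver the members spanned a wide range of levels. At C0 the mean level on the RPKM scale was 23.3 ± 7.86 (SD, n = 9) for Lifr, 13.7 ± 3.16 for Il6st, 10.5 ± 8.29 for Il1r1, 9.69 ± 1.22 for Jak1, 7.98 ± 1.69 for Stat3, 7.35 ± 6.16 for Il6ra and 2.43 ± 0.289 for Jak2. The inhibitor gene Socs3 was at 1.55 ± 1.51 RPKM, and Socs1 and Osmr were lowest, at 0.226 ± 0.181 and 0.184 ± 0.0969 RPKM. The ranges of neighbours in this order overlapped in every case. Across all 19 groups the ratio of the highest to the lowest group mean was 57.2 for Socs1, 36.4 for Socs3, 23.1 for Il1r1 and 13.2 for Osmr, and lay between 2.31 for Jak1 and 4.75 for Il6ra for the other 6 members. Socs1 was the least well measured, with a median of 5.99 estimated reads a library and a value above the threshold in 17 of 80 libraries; Osmr had a median of 65.1 estimated reads and passed it in 47.

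**Figure D1:**
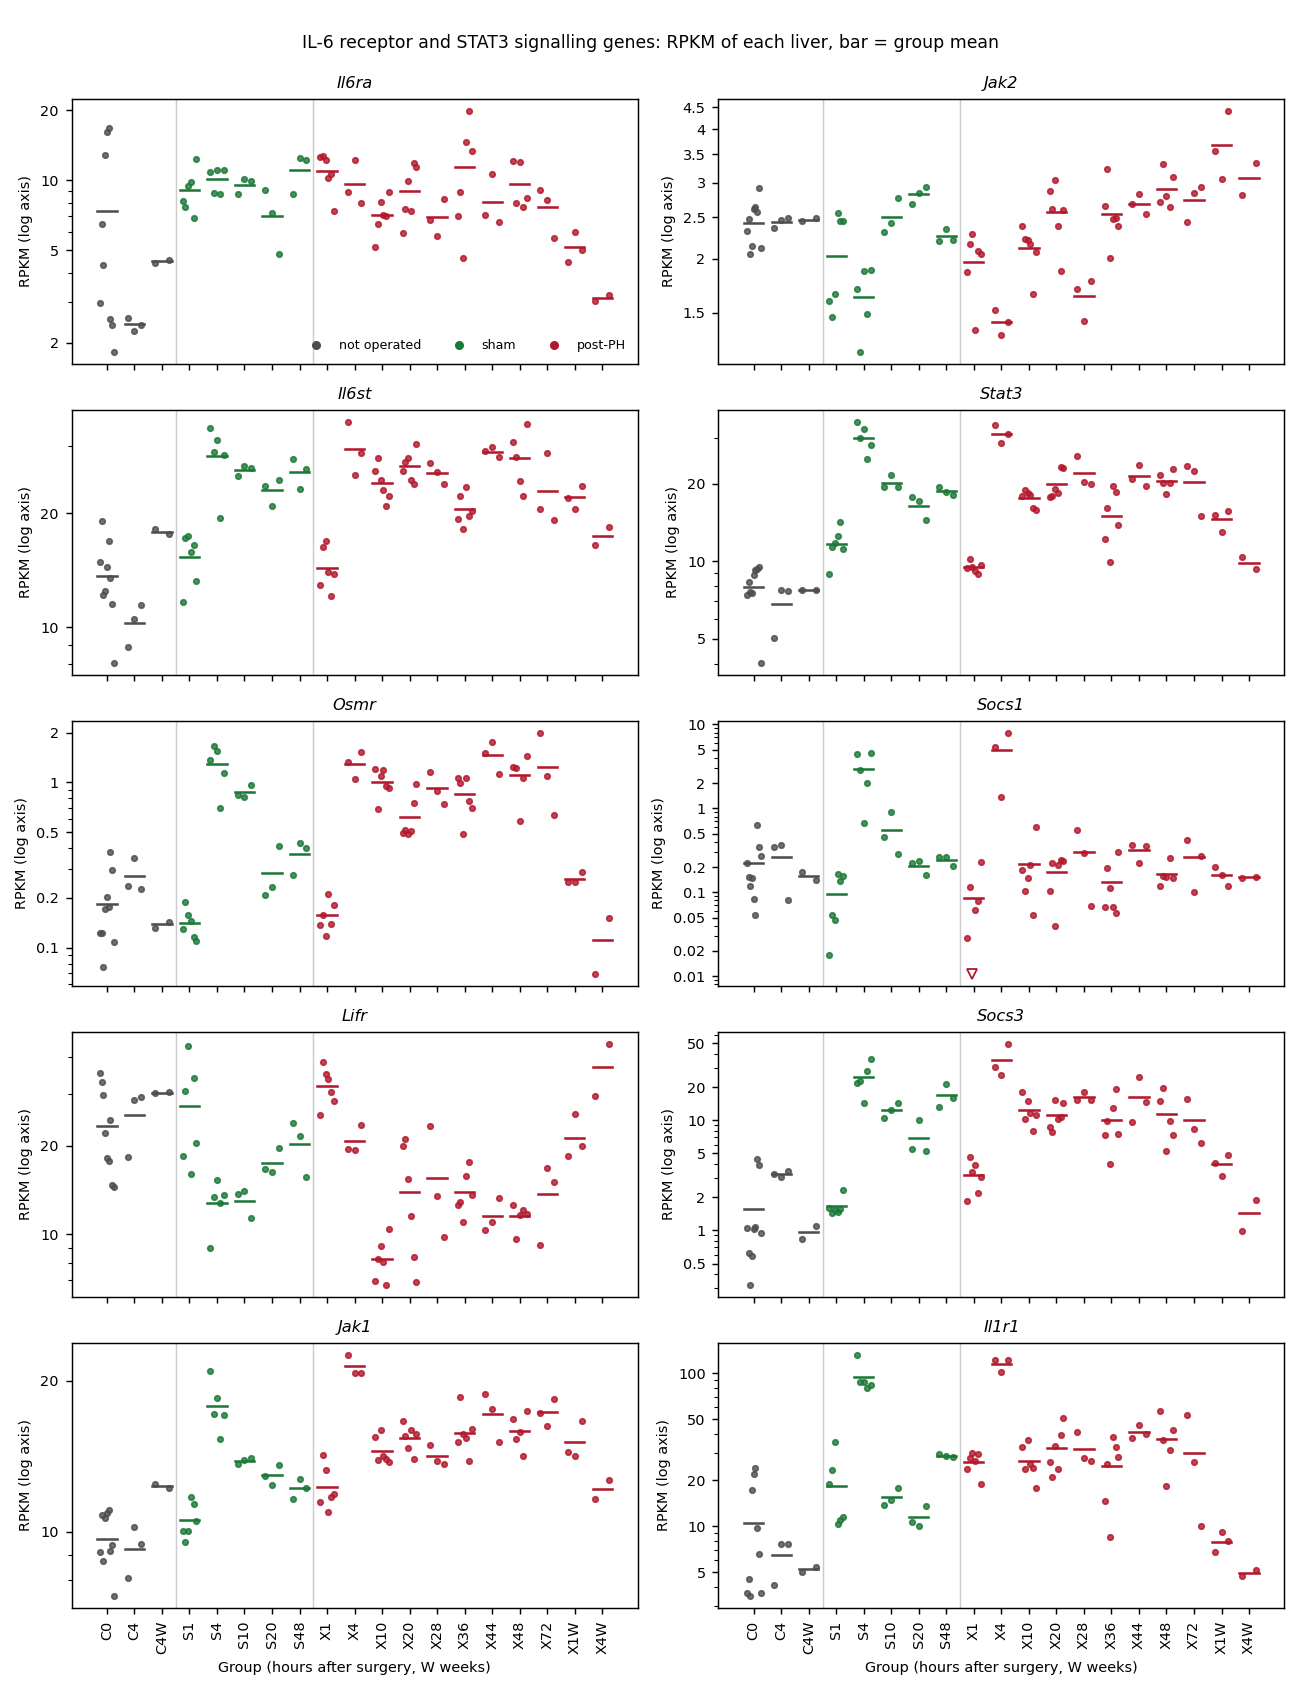
Levels of the 10 members in RPKM (log axis) in every library, by group, with unoperated, sham and post-PH livers in order of time; points are libraries, horizontal lines group means, and a triangle marks a library at 0. Il1r1, Stat3, Socs3 and Socs1 stood highest at 4 h in both sham and post-PH livers, at means of 93.7 and 115 RPKM for Il1r1.

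The 9 C0 livers were not alike for 4 of the members. Il6ra was at 2.95, 6.47 and 4.33 RPKM in replicates 1 to 3, at 12.8, 16.1 and 16.7 RPKM in replicates 4 to 6, and at 2.52, 2.38 and 1.83 RPKM in replicates 7 to 9. Replicates 4 to 6 thus lay above every other C0 liver, and the highest of the 3 triplicate means was 6.79 times the lowest. The same ratio was 5.40 for Il1r1, whose triplicate means were 3.89, 21.0 and 6.66 RPKM, again highest in replicates 4 to 6. For Socs3 it was 4.66 and for Socs1 4.42, with the mean of replicates 7 to 9 highest. The Socs3 mean rested on replicates 7 and 8, at 4.43 and 3.92 RPKM, while replicate 9 was at 0.951 RPKM, within the range of replicates 1 to 6. The ratio was 2.43 for Osmr, 1.83 for Lifr, and at most 1.39 for Il6st, Jak1, Jak2 and Stat3. The libraries that make up each period are not named by the labels, and what separates the triplicates was not tested. Changes of Il6ra and Il1r1 against C0 are for this reason also given against replicates 4 to 6 alone.

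**Figure D2:**
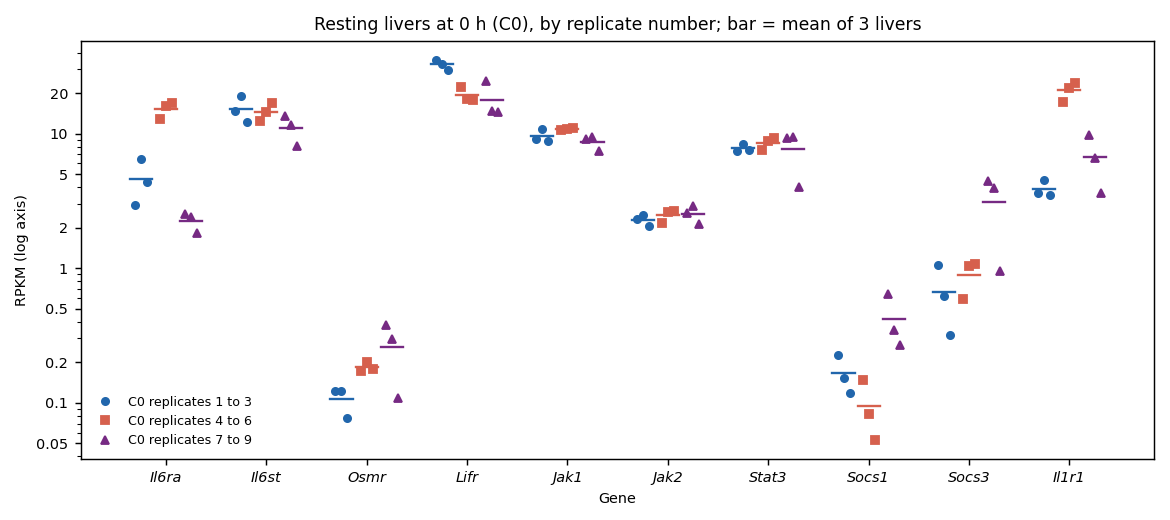
Levels in RPKM (log axis) of the 10 members in the 9 unoperated C0 livers, by replicate number; horizontal lines are means of 3 livers. Il6ra and Il1r1 were highest in replicates 4 to 6, whereas Jak1, Jak2 and Il6st varied little.

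The question the sham groups answer is whether these genes respond to removal of liver tissue or to the operation that surrounds it. Genes were tested with limma on log2(RPKM + 0.25) and called at a Benjamini-Hochberg adjusted p below 0.05, over all genes tested, with a log2 difference beyond 0.5. Differences on this scale are smaller than those of RPKM for low genes such as Osmr and Socs1. In X1 against S1, 0 of 10 members were called, against 0.65% of all genes tested (3 members had an unadjusted p under 0.05). In X4 against S4, 0 members were called against 8.64% of all genes, with 2 at an unadjusted p under 0.05, and in X10 against S10, 0 against 7.02%, again with 2. In X20 against S20, 2 members were called (Osmr and Il1r1) against 7.11% of all genes. In X48 against S48, 2 were called (Osmr and Lifr) against 27.2%, a share close to the background; the median of all genes tested was itself 0.27 higher in X48. Libraries of the groups compared did not overlap for 21.6% of all genes in X4 against S4, 17.6% in X10 against S10, 16.8% in X20 against S20 and 45.9% in X48 against S48, and for 52.5% in S4 and 64.8% in X4 against C4, so that a lack of overlap is common among genes at these group sizes. The change of the PH against sham difference between consecutive times was called for 0 members from 1 to 4 h (4.68% of all genes), 1 from 4 to 10 h (3.73%), 0 from 10 to 20 h (0.104%) and 0 from 20 to 48 h (13.2%), with 0, 2, 1 and 2 members at an unadjusted p under 0.05.

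**Figure D3:**
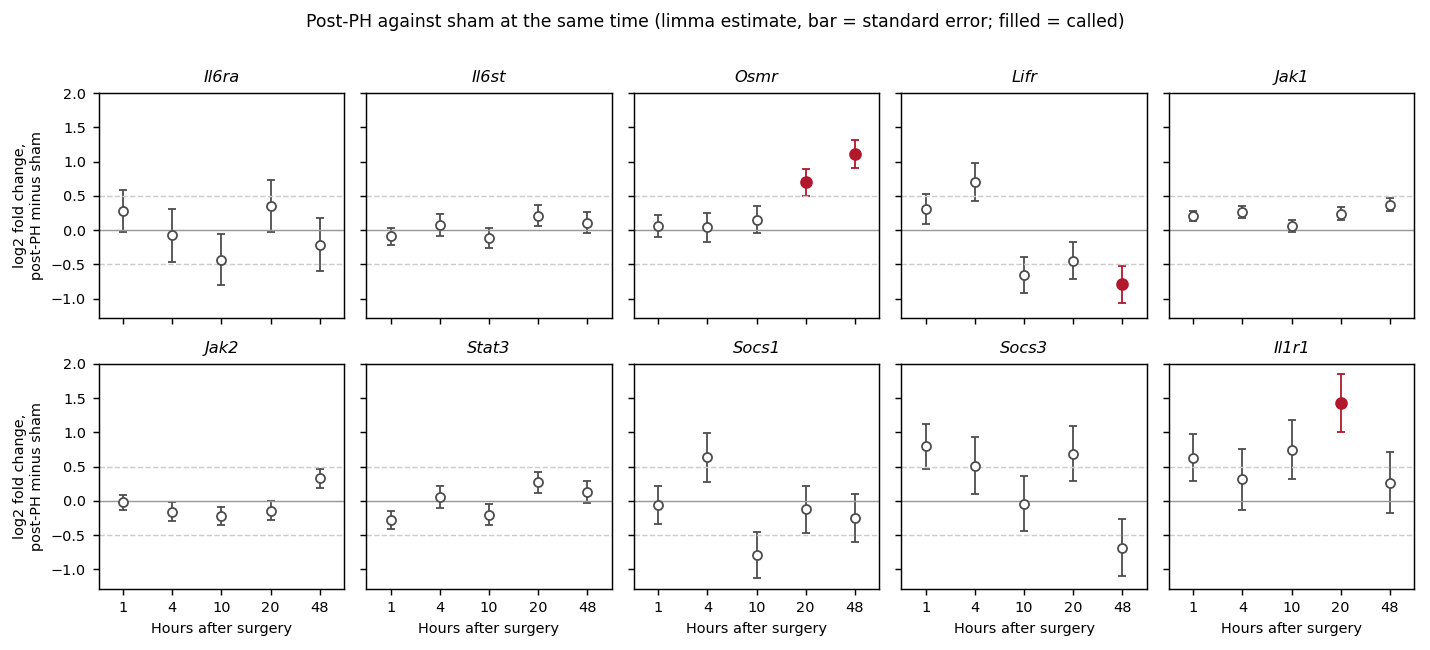
Log2 difference of each member between post-PH and sham livers at each of the 5 sham times (hours on the horizontal axis); error bars are standard errors, dashed lines the fold limit of 0.5, and filled points are called. Osmr was called higher at 20 and 48 h, Il1r1 higher at 20 h and Lifr lower at 48 h.

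Against unoperated livers the members changed far more often. In S4 against C4 all 10 members were called, against 43.3% of all genes; 8 were higher, against 12.2%, and 2 lower, against 31%. In X4 against C4, 9 were called against 45.6%, and in X28 against C4, 9 against 32.7%. Among the sham groups compared with C0, 2 members were called in S1 (7.77% of all genes), 7 in S10 (29.1%), 3 in S20 (12.1%) and 6 in S48 (8.88%). Among the post-PH groups the counts against C0 were 4 in X1 (13.5%), 7 in X10 (36.4%), 8 in X20 (24.1%), 8 in X36 (35%), 7 in X44 (39.2%), 8 in X48 (38.1%), 7 in X72 (33.2%) and 5 in X1W (16.9%). In X4W against C4W, limma called 0 members against 0.065% of all genes, with 0 at an unadjusted p under 0.05. Without C0 replicate 8 the counts against C0 were the same in S1, S10, S20, X10, X36, X44, X72 and X1W, and 1 lower in S48, X1, X20 and X48, at 5, 3, 7 and 7. The unoperated groups also differed from each other, where hour of day and period cannot be told apart: in C4 against C0, 2 members were called against 7.89% of all genes, Il6ra lower (−1.08 ± 0.35 SE on the log2 scale, adjusted p = 0.0285) and Socs3 higher (1.32 ± 0.38, adjusted p = 0.0126). Both of these calls were lost against C0 replicates 7 to 9, and the count fell to 0 without C4 replicate 2 or replicate 3.

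At 4 h, 8 of the members rose both with and without hepatectomy. From the largest log2 difference to the smallest, on the log2(RPKM + 0.25) scale, these were Il1r1, Socs3, Socs1, Stat3, Il6ra, Osmr, Il6st and Jak1 in both groups. The ratio of mean RPKM ordered them otherwise, with Il1r1 at 14.4 in S4 and 17.6 in X4 and Socs1 at 10.98 and 18.4. Socs3 was at 7.56 and 10.8, Osmr at 4.76 and 4.81 and Stat3 at 4.43 and 4.57. Jak2 was lower in both, and Lifr was called lower in S4 and not in X4. For none of the 10 was the difference between X4 and S4 called. With the 9 C0 livers in place of C4, 10 members were called in S4 and 9 in X4, but for Il6ra the direction depended on which C0 livers were used: against C0 replicates 4 to 6 it was called lower, at −0.58 in S4 and −0.66 in X4. The summed neutrophil markers were 1.34 to 5.31 RPKM in C4, 7.4 to 45.6 RPKM in S4 and 4.7 to 10.2 RPKM in X4; of the 10 markers 5 were called higher in S4 and 1 in X4, with Ly6g at 0 in every C4 library and Camp at 0 in every X4 library. Other marker lists were lower at 4 h: stellate cell markers were called lower in 8 of 9 and B cell markers in 5 of 5 in both comparisons, Kupffer cell and macrophage markers in 4 of 9 in S4 and 6 of 9 in X4, and endothelial markers in 3 of 8 and 5 of 8. Of all genes, 12.2% were called higher and 31% lower in S4, and 45.6% were called in either direction in X4. The Kupffer cell and endothelial counts in S4 were not far from that share of lower genes. The Kupffer cell and macrophage sum was 43.5 to 58.8 RPKM in C4, 15.8 to 42.3 RPKM in S4 and 16.6 to 21.2 RPKM in X4, and the endothelial sum 34.5 to 37.0, 19.3 to 33.9 and 16.5 to 17.7 RPKM. The hepatocyte sum was 51484 to 54981 RPKM in C4, 36224 to 48887 RPKM in S4 and 37863 to 40693 RPKM in X4. In X4 against S4, 1 neutrophil and 2 endothelial markers were called lower, where 8.64% of all genes were called in either direction. The part of these cells in the members' change was not tested.

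**Figure D4:**
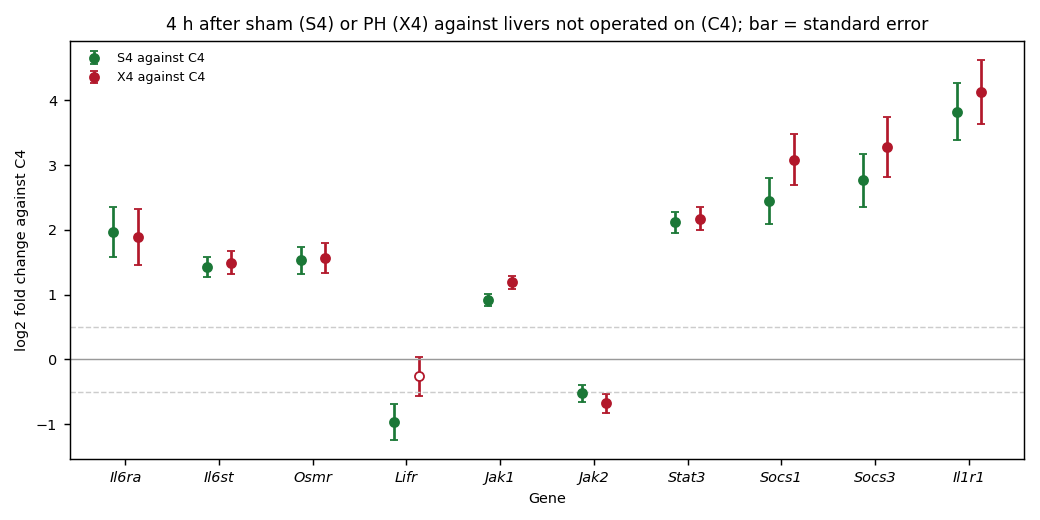
Log2 difference from C4 of each member in S4 and X4 livers at 4 h; error bars are standard errors, dashed lines the fold limit of 0.5, and open points are not called. Il1r1 lies highest, at 3.82 and 4.14, while Jak2, at −0.53 and −0.68, and Lifr, at −0.97 and −0.26, lie below 0.

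Il6ra (chr3:89673246-89717084, minus strand of mm9, the build of all member positions here) encodes the subunit that binds IL-6. It was at 2.56, 2.24 and 2.39 RPKM in the C4 livers, at 10.8, 8.84, 11.1, 8.75 and 11.1 RPKM in S4 and at 8.87, 12.1 and 7.97 RPKM in X4. Every operated liver lay above every C4 liver, and S4 and X4 overlapped. The log2 difference was 1.96 ± 0.39 (SE) in S4 against C4 (adjusted p = 1.71e-05) and 1.88 ± 0.43 in X4 against C4 (adjusted p = 0.000178). With C0 in place of C4 these were 0.88 and 0.80, and for X28 the difference of 1.43 became 0.34 and was no longer called. Against C0 replicates 4 to 6 alone, a control chosen after seeing the data, all 3 were called lower, at −0.58 in S4, −0.66 in X4 and −1.11 in X28. Il6ra was called higher against C0 in S48 (1.00), X1 (0.98), X20 (0.68), X36 (0.90) and X48 (0.79). Against C0 replicates 4 to 6 alone the direction was the opposite in each of these, for example −0.46 in S48 and −0.56 in X36, and without C0 replicate 8 the calls in S48, X20 and X48 were lost. In X1W it was at 5.15 ± 0.771 RPKM and in X4W at 3.1 ± 0.136 RPKM, with no call.

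Il6st (chr13:113265216-113297068, plus strand), the signal-transducing subunit shared by the whole cytokine family, was the one receptor gene still called against C0 at 1 week. Its levels were 8.88, 10.5 and 11.4 RPKM in C4, 33.5, 28.9, 31.1, 19.4 and 28.5 RPKM in S4 and 34.8, 25.2 and 28.8 RPKM in X4. No operated liver overlapped with C4. The log2 difference was 1.42 ± 0.15 (SE, adjusted p = 9.81e-12) in S4 and 1.5 ± 0.17 (adjusted p = 5.35e-11) in X4. At 1 h it was not called in either group against C0 (0.18 in S1 and 0.09 in X1). It was called higher than C0 in S10 (0.95), S20 (0.77) and S48 (0.93). The same held for every post-PH group from 10 to 72 h compared with C0 (0.61 to 1.11). The smallest of these differences were 0.61 in X36 and 0.74 in X72. Library medians on the log2 scale were also higher there, at 1.42 to 1.66 in X36 and 1.46 to 1.59 in X72. In C0 they were 0.993 to 1.25. Scaling to the same median takes this gap off, which brings Il6st in X36 and X72 under the fold limit. X28, at 23.8 to 27.1 RPKM, was called higher than C4. At 1 week it was still higher than C0 by 0.71 ± 0.14 (adjusted p = 7.5e-05), at 22 ± 1.54 RPKM, and at 4 weeks X4W (17.4 ± 1.39 RPKM) and C4W (17.9 ± 0.402 RPKM) overlapped. The interval of its X48 against S48 difference was −0.20 to 0.41.

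Osmr (chr15:6763577-6824313, minus strand), a subunit that pairs with gp130 for oncostatin M, was the one member called between post-PH and sham livers at both 20 h and 48 h. At 4 h it was at 0.236, 0.348 and 0.225 RPKM in C4, at 1.37, 1.66, 1.56, 0.696 and 1.14 RPKM in S4, and at 1.32, 1.05 and 1.53 RPKM in X4. Both operated groups lay above C4, by 1.53 ± 0.21 (adjusted p = 6.79e-09) and 1.57 ± 0.23 (adjusted p = 5.46e-08) on the log2 scale, and overlapped each other. At 10 h the means were still alike, at 0.872 ± 0.0801 RPKM in S10 and 1.01 ± 0.195 RPKM in X10.

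At 20 h Osmr was at 0.209, 0.231 and 0.414 RPKM in the S20 livers. In X20 its lowest, median and highest levels were 0.489, 0.511 and 0.976 RPKM, and the groups did not overlap. The log2 difference was 0.70 ± 0.20 (SE, adjusted p = 0.0154), 1.62-fold on the log2(RPKM + 0.25) scale, and Osmr was called in X20 against C0 (1.01) but not in S20 against C0 (0.31). The call against S20 was lost with a pseudocount of 1 (0.33), without S20 replicate 1 (0.59, adjusted p = 0.123), S20 replicate 2 (0.63, adjusted p = 0.0883) or X20 replicate 6 (0.59, adjusted p = 0.0505), with post-PH replicates 1 to 3 alone (0.51, adjusted p = 0.0935) and with only the 2 groups in the fit (adjusted p = 0.0676). With post-PH replicates 4 to 6 alone it was called (0.89, adjusted p = 0.00419). At 48 h the levels were 0.273, 0.428 and 0.399 RPKM in S48 and 1.24, 1.23, 0.581, 1.07 and 1.44 RPKM in X48. All 5 post-PH livers lay above all 3 sham livers. The difference of 1.11 ± 0.21 (adjusted p = 1.38e-05, 2.16-fold) was called in every alternative that tested Osmr, with values of 0.61 to 1.44. Osmr was highest of all groups in X44, at 1.46 ± 0.323 RPKM, and was not called at 1 week (0.26).

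Stellate cell markers were also higher in post-PH than in sham livers at these times. Their sum was 44.3 to 69.3 RPKM in S20 against 69 to 92.7 RPKM in X20, with 3 of 9 markers called (7.11% of all genes). It was 62.2 to 66.6 RPKM in S48 against 72.2 to 126 RPKM in X48, with 5 of 9 called (27.2% of all genes). In X48, 2 of 8 endothelial markers were called lower than in S48, and the cholangiocyte sum was 31.7 to 44.4 RPKM against 19.6 to 29.5 RPKM and the B cell sum 0.700 to 4.00 RPKM against 4.59 to 8.35 RPKM. The part of these cells in the Osmr, Il1r1 and Lifr differences was not tested. At 4 h, when Osmr was higher than in C4, the stellate sum was lower, at 43 to 64.9 RPKM in S4 and 48.1 to 61.1 RPKM in X4 against 97.3 to 111 RPKM in C4.

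Lifr (chr15:7079559-7147489, plus strand), the subunit for leukaemia inhibitory factor, moved the other way from the rest of the receptors. At 4 h it was at 18.3, 28.7 and 29.3 RPKM in C4, at 8.96, 13.4, 15.3, 12.8 and 13.6 RPKM in S4 and at 19.5, 19.3 and 23.5 RPKM in X4. All S4 livers lay below all C4 livers (−0.97 ± 0.27, adjusted p = 0.00187), whereas X4 overlapped with C4 (−0.26 ± 0.30, adjusted p = 0.48). X4 and S4 did not overlap either, but their difference of 0.70 ± 0.27 was not called (adjusted p = 0.0734). At 10 h the order was turned: S10 stood at 13.7, 14 and 11.3 RPKM and X10 at 6.92, 8.23, 9.09, 8.02, 6.72 and 10.4 RPKM, again with no overlap and no call (−0.65 ± 0.26, adjusted p = 0.0966; −0.67 with X10 replicates 1 to 3 and −0.63 with replicates 4 to 6). The change in the PH against sham difference from 4 h to 10 h was itself tested and was called, at −1.36 ± 0.38 (adjusted p = 0.0261, interval −2.11 to −0.60). This call was lost with no filter on low genes (adjusted p = 0.071) and without S4 replicate 1, S10 replicate 1, S10 replicate 2 or X4 replicate 6, with values of −1.23 to −1.32.

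At 20 h Lifr was not called between X20 and S20, but the X20 livers were not alike. X20 replicates 1 to 3 were at 20, 21.1 and 15.4 RPKM and replicates 4 to 6 at 11.5, 8.34 and 6.86 RPKM, beside 16.7, 16.2 and 19.6 RPKM in S20. The limma difference from S20 was 0.095 (adjusted p = 0.855) with X20 replicates 1 to 3. With replicates 4 to 6 it was −0.98 (adjusted p = 0.00604) and was called. At 48 h Lifr was at 23.8, 21.5 and 15.6 RPKM in S48 and at 12.5, 9.63, 11.6, 12.1 and 11.7 RPKM in X48. The groups did not overlap, and the log2 difference of −0.79 ± 0.27 was called (adjusted p = 0.0143), the post-PH level being 0.578 of the sham level. Without S48 replicate 1 the difference was −0.67 (adjusted p = 0.0911) and without S48 replicate 2 it was −0.74 (adjusted p = 0.053), and neither was called. Against C0, Lifr was called lower in S10 (−0.76) and in every post-PH group from 10 to 72 h (−0.68 to −1.42, the lowest in X10), and in X28 against C4 (−0.77). X1 was at 0.51 (adjusted p = 0.0348), a call that was lost without C0 replicate 5, 6, 8 or 9 or X1 replicate 2, 3 or 4 (0.43 to 0.49), with no filter, a pseudocount of 1 or only the groups compared, and the value was −0.043 against C0 replicates 1 to 3. The calls lower than C0 also lean on C0 replicates 1 to 3, at a mean of 32.7 RPKM. Replicates 4 to 6 averaged 19.3 RPKM and replicates 7 to 9 averaged 17.9 RPKM, with a range of 14.5 to 24.5 RPKM. The highest livers of X20, X36 and X72, at 21.1, 17.6 and 16.9 RPKM, lay within that range. At 1 week Lifr was at 21.3 ± 3.75 RPKM, with no call against C0 (−0.07).

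Il1r1 (chr1:40281925-40373043, plus strand), the IL-1 receptor gene, showed the largest change at 4 h of all members. It was at 4.15, 7.65 and 7.71 RPKM in C4, at 132, 86.8, 86.8, 79.3 and 83.9 RPKM in S4 and at 121, 102 and 121 RPKM in X4. The lowest operated liver lay far above the highest C4 liver. The differences were 3.82 ± 0.44 (SE, adjusted p = 5.67e-11, 14.2-fold) in S4 and 4.14 ± 0.49 (adjusted p = 1.45e-10, 17.6-fold) in X4, and X4 against S4 was 0.31 with an interval of −0.57 to 1.20.

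At 20 h Il1r1 was higher in post-PH than in sham livers. It was at 10.6, 10.1 and 13.6 RPKM in S20, and its lowest, median and highest levels in X20 were 21, 29.9 and 51.1 RPKM. The groups did not overlap, and the log2 difference was 1.43 ± 0.43 (adjusted p = 0.0184, 2.69-fold). It was not called without S20 replicate 1 (1.38, adjusted p = 0.0869) or S20 replicate 2 (1.35, adjusted p = 0.084), and it was called with X20 replicates 1 to 3 (1.20) and 4 to 6 (1.65) apart. At 10 h, where the difference of 0.75 was not called, it was 0.98 with X10 replicates 1 to 3 (adjusted p = 0.0364) and 0.52 with replicates 4 to 6 (adjusted p = 0.377). At 48 h the sham livers stood at 28.2 to 29.8 RPKM and the post-PH livers at 18.4 to 56.4 RPKM, a difference of 0.27 that was not called. Il1r1 was called higher than C0 in S1 (1.03), S48 (1.82) and each post-PH group from 1 to 72 h compared with C0 (1.44 to 2.32). With C0 replicates 4 to 6 as the only control these differences were smaller, 0.30 in X1, 0.32 in X10, 0.56 in X20, 0.08 in X36, 0.21 in X72 and 0.47 in S48, and none of these 6 was called; in S1 it was −0.33. At 1 week the level was 7.95 RPKM on average, with no call (−0.02).

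Jak1 (chr4:100824972-100937887, minus strand) and Jak2 (chr19:29326318-29387570, plus strand), the genes of kinases bound to gp130, moved in opposite directions at 4 h. Jak1 was at 8.09, 10.2 and 9.46 RPKM in C4, at 20.9, 17.1, 18.5, 15.3 and 17.1 RPKM in S4 and at 22.5, 20.7 and 20.7 RPKM in X4. Its differences from C4 were 0.92 ± 0.09 (adjusted p = 9.93e-13) and 1.19 ± 0.10 (adjusted p = 6.08e-15), with no overlap. It varied least among the members and was called higher in each post-PH group from 10 to 72 h (0.58 to 0.83 against C0, 0.60 in X28 against C4) and at 1 week (0.63). Post-PH livers exceeded sham livers by 0.27 at 4 h (adjusted p = 0.0438) and 0.37 at 48 h (adjusted p = 0.000883), differences that passed the p threshold but stayed under the fold limit. When all libraries were scaled to the same median, Jak1 fell under the fold limit against C0 in S10, X10, X20, X36, X44, X48, X72 and X1W; the median of all genes tested was itself 0.21 to 0.24 above C0 in X44, X48 and X72.

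Jak2 was at 2.36, 2.46 and 2.49 RPKM in C4, at 1.7, 1.22, 1.87, 1.49 and 1.89 RPKM in S4 and at 1.52, 1.33 and 1.43 RPKM in X4. Each operated liver was below each C4 liver, by −0.53 ± 0.14 (adjusted p = 0.000813) in S4 and −0.68 ± 0.15 (adjusted p = 0.000133) in X4, and X28 was lower too (−0.51). Since the median of all genes was −0.22 in S4 and −0.26 in X4 against C4, scaling to the same median left −0.32 and −0.43, which were not called. At 1 week Jak2 was higher than C0, at 3.68 ± 0.686 RPKM (0.54 ± 0.13, adjusted p = 0.000533); it fell under the fold limit with scaling to the same median (0.35), with a pseudocount of 1, against C0 replicates 7 to 9 (0.49) and without X1W replicate 3 (0.41). It was higher in X48 than in S48 by 0.33 (adjusted p = 0.0428), under the fold limit.

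Stat3 (chr11:100746412-100800854, minus strand), the transcription factor of the pathway, was raised in all 5 sham groups and in every post-PH group but X1 and X4W. Its levels were 5.05, 7.73 and 7.65 RPKM in C4, 34.8, 30, 32.6, 25 and 28.3 RPKM in S4, and 33.7, 28.7 and 31.1 RPKM in X4. The operated livers lay far above C4 and overlapped with each other. The differences were 2.12 ± 0.16 (SE, adjusted p = 6.34e-17, 4.35-fold) in S4 and 2.17 ± 0.18 (adjusted p = 1.1e-15, 4.51-fold) in X4. The interval of X4 against S4 was −0.27 to 0.38. Stat3 was already higher in S1 than in C0 (0.56 ± 0.12, adjusted p = 0.000306), and X1 was at 0.28 (adjusted p = 0.0571). It stayed 1.05 to 1.34 above C0 in S10, S20 and S48, and 0.89 to 1.42 above in X10, X20, X36, X44, X48 and X72. At 48 h the interval of X48 against S48 was −0.20 to 0.46. One week after PH it was 0.88 ± 0.15 higher than C0 (adjusted p = 5.08e-06), and at 4 weeks X4W was at 9.86 RPKM and C4W at 7.72 RPKM, a difference of 0.34 that was not called.

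Socs3 (chr11:117827393-117831361, minus strand), the feedback inhibitor of gp130 signalling, is the member whose upstream sequence bears the letters of a STAT motif. RefSeq sequence of the mouse genome (GRCm38.p6, a later build than the mm9 coordinates of the expression table) was searched in the 250 bases before each gene start for TTCNNNGAA, which reads the same on both strands. Of the 10 members only Socs3 held a match, starting 154 bases before its start; 8.13% of all 27025 genes with such a window held one. The window is chr11:117969367-117969616, read on the minus strand, and is shown because it is the one member window with the match; capitals mark the motif.
Socs3: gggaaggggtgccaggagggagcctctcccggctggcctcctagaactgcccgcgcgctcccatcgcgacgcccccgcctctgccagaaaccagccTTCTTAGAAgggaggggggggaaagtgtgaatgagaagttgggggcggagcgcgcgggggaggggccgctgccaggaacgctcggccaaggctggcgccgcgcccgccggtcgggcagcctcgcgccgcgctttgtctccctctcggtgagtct
A match describes the letters only, and no binding of STAT3 was measured here.

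Socs3 was at 3.24, 3.07 and 3.46 RPKM in C4, at 22, 22.7, 14.3, 28.3 and 36 RPKM in S4, and at 30.3, 25.5 and 49.6 RPKM in X4. No operated liver was near the C4 range. The differences were 2.76 ± 0.41 (SE, adjusted p = 6.59e-08, 6.79-fold) and 3.28 ± 0.46 (adjusted p = 1.54e-08, 9.69-fold), and X4 against S4 was 0.51 with an interval of −0.32 to 1.34. Against C0, whose livers ranged from 0.321 to 4.43 RPKM, Socs3 was called higher in S10 (3.16), S20 (2.29) and S48 (3.58, or 12-fold). The same held for each post-PH group from 10 to 72 h compared with C0 (2.72 to 3.45). X28, at 15.3 to 18.2 RPKM, was called higher than C4. The 48 h sham livers, at 13.2 to 21.5 RPKM, had not returned to the C0 range. At 1 h it was higher than C0 in X1 (1.23 ± 0.30, adjusted p = 0.000799) and not called in S1 (0.43), and X1 against S1 was 0.80 ± 0.33 (adjusted p = 0.393). Against C0 replicates 7 to 9, the highest triplicate, X1 was at 0.20 and X1W at 0.56, and neither was called. In X48 against S48 it was −0.68 (adjusted p = 0.182). Against all C0 livers it was higher at 1 week (1.59 ± 0.38, adjusted p = 0.000793; with only the 2 groups in the fit, adjusted p = 0.0722) and not called at 4 weeks (0.42).

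Socs1 (chr16:10783901-10785629, minus strand), whose product inhibits Janus kinases, was called higher at 4 h and, among later groups, in S10. Its levels were 0.349, 0.368 and 0.0813 RPKM in C4, 4.46, 2.88, 0.664, 2 and 4.6 RPKM in S4, and 5.39, 1.36 and 7.98 RPKM in X4. The operated livers lay above C4 but differed severalfold among themselves. The differences were 2.45 ± 0.35 (SE, adjusted p = 2.37e-08, 5.46-fold on the log2(RPKM + 0.25) scale) and 3.08 ± 0.39 (adjusted p = 1e-09, 8.47-fold). S10 was higher than C0 by 0.75 (adjusted p = 0.0489), at 0.287 to 0.906 RPKM. This range overlapped with C0 replicates 7 to 9, the highest triplicate, at 0.268 to 0.640 RPKM. X10 was at 0.0532 to 0.594 RPKM, and X10 against S10 was −0.79 with an adjusted p of 0.126. The change of the PH against sham difference from 4 to 10 h was −1.42 for Socs1 (adjusted p = 0.0823), and was not called.

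Of the IL-6 family ligands, Ctf1 was above the detection threshold in every library and most others were at or near 0 in whole liver. Il6 was at 0 in 56 of 80 libraries and reached 0.219 RPKM, in an S1 liver. Osm reached 0.145 RPKM in an S4 liver and was at 0 in 44 libraries, and Lif reached 0.139 RPKM. The highest levels of Il11 and Il27 were 0.084 and 0.1 RPKM, and that of Cntf was 0.352 RPKM. Of the 10 ligand genes 3 passed the detection threshold: Ctf1 (cardiotrophin-1, median 1.92 RPKM), Clcf1 (0.199) and Ebi3 (0.117). All 3 were called lower in S4 against C4, where 31% of all genes were. In X4 against C4, 2 were called lower, where 45.6% of all genes were called in either direction. Ctf1 was at −1.79 in S4 and −1.84 in X4. Of 3 other receptor genes of the family, Il11ra1 was lower at 4 h, by −1.13 in S4 and −1.08 in X4.

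The list of 31 STAT3 target genes of hepatocytes, taken from textbook knowledge with earlier results of these data known, was raised in both operated groups. In S4 against C4, 25 were called higher and 1 lower (83.9% called, beside 43.3% of all genes). The median log2 difference was 2.21 beside −0.22 for all genes tested. In X4 against C4 it was 27 and 1 (90.3%, beside 45.6%), with a median of 2.04 beside −0.26. Lcn2, which encodes the iron-siderophore binding protein lipocalin 2, went from 0.855 RPKM in C4 to 724 RPKM in S4 and 637 RPKM in X4 (9.18 and 9.15 on the log2 scale). The serum amyloid A genes followed, with Saa2 at 8.98 and 8.39, Saa1 at 7.81 and 7.30 and Saa3 at 6.22 and 5.13; Saa1 and Saa2 are near-identical, and reads that map to both were shared between them. Later counts were 26 higher in S10, 25 in X10, 19 in S20, 21 in X20, 21 in S48 and 22 in X48 against C0, with 1 lower in each. The shares of all genes called in either direction were 29.1%, 36.4%, 12.1%, 24.1%, 8.88% and 38.1%, in the same order. In S4, X4 and these 6 groups the lower gene was Hamp2.

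Between post-PH and sham livers the count of these 31 genes called varied with time. By limma 0 were called at 1 h and 0 at 4 h, and at 10 h the 1 call was Saa4, which was lower. At 20 h 6 were called (19.4%, beside 7.11% of all genes), all higher: the fibrinogen chain genes Fga, Fgb and Fgg, the plasma protein genes Apcs and Orm1, and the metalloreductase gene Steap4. The median difference of the list was 0.61 beside 0.07 for all genes tested. At 48 h 7 were called (22.6%, beside 27.2% of all genes), of which 3 were higher (Serpina3n, Lcn2, Timp1) and 4 lower (Saa4, Hamp, Hamp2, Junb). These genes are named because they were the ones called, after their values had been seen.

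Of the 25 STAT3 target genes with an upstream window, 6 held TTCNNNGAA (24%), beside 8.13% of all genes. The windows of 4 of them, the genes that rose at 4 h, are shown with 15 bases on either side of the match, where the window reaches that far, to set them beside the Socs3 match; all are 5′ to 3′ on the strand of the gene in GRCm38.p6, with the motif in capitals.
Fga, chr3:83025904-83025942, plus strand: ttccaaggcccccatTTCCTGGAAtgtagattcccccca
Fgb, chr3:83050002-83050040, minus strand: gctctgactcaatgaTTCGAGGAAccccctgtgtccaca
Apcs, chr1:172895275-172895304, minus strand: atcttcTTCTAGGAAagcacagggtcatga
Steap4, chr5:7960341-7960379, plus strand: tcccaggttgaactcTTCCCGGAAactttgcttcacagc
The 6 genes, which include Hamp and Hamp2, did not all move alike at 4 h. Steap4 rose by 5.11 in S4 and 5.81 in X4 against C4, Apcs by 3.08 and 2.77, Fga by 2.14 and 2.04 and Fgb by 1.71 and 1.58. Hamp and Hamp2 encode hepcidin and its near-identical copy, between which shared reads were split. Hamp was at 0.75 and 0.94, not called, and Hamp2 was called lower at −1.91 and −2.5. In S4, Lcn2, Saa1, Saa2 and Saa3 had the largest differences of the list and no match in their windows; in X4, Serpina3n (5.44) and Steap4 (5.81), which holds a match, lay above Saa3.

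Genes of the IL-1 and TNF systems, 17 of 19 tested, were called higher in 8 and lower in 2 in S4 against C4 (58.8% of them called, beside 43.3% of all genes) and in 9 and 2 in X4 (64.7%, beside 45.6%). The IL-1 receptor antagonist gene Il1rn was higher by 3.28 and 3.89, the inhibitory kinase gene Irak3 by 1.98 and 2.46, the adaptor gene Myd88 by 1.95 and 2.14, and Tnfrsf1a, the TNF receptor gene, by 1.66 and 1.54. Irak2, a kinase of the IL-1 receptor complex, was the one gene of this list called between X4 and S4, at 6.25 ± 1.42 RPKM against 2.51 ± 0.633 RPKM (1.25, adjusted p = 1.83e-06); it is named after its values were seen, as are Nfkbiz, higher in X20 than in S20 (1.10), and Irak2 (0.51), Il1rap (−0.66) and Il18 (−0.53) in X48 against S48. Il1rn is also on the list of STAT3 targets. Of the 18 genes of this list with an upstream window 4 held TTCNNNGAA (22.2%), among them Myd88 and Tnfrsf1a, and of the 6 ligand, 2 receptor, 7 kinase or STAT and 7 inhibitor genes with a window 0 held it.

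The other Janus kinase and STAT genes were called at shares close to those of all genes. In S4 against C4, 1 of 7 tested was higher and 2 lower, 42.9% beside 43.3% of all genes, and in X4 2 were higher and 2 lower, 57.1% beside 45.6%. Jak3 was higher by 0.79 and 1.33, Tyk2 lower by −0.84 and −1.03, Stat5b was at −0.61 (called) and −0.31 (not called), and Stat6 at −0.33 (not called) and −0.65 (called). Jak3 (0.54) and Stat5a (0.64) were higher in X4 than in S4, and Jak3 (0.54), Tyk2 (0.58) and Stat5a (0.65) in X48 than in S48; Stat5a was named after its values were seen. Among 14 other genes for inhibitors, 5 were higher and 2 lower in S4 and 4 and 3 in X4, 50% in each beside 43.3% and 45.6% of all genes. Cish, a STAT5-responsive inhibitor, was higher by 2.5 and 2.61, the tyrosine phosphatase genes Ptpn1 by 2.16 and 2.17 and Ptpn2 by 1.48 and 2.14, while Pias3, whose product inhibits STAT3, was lower by −1.55 and −1.72. Ptpn2 was the one inhibitor gene called between X4 and S4 (0.66), and it was called again in X20 against S20 (0.62) and X48 against S48 (0.64).

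The genes whose course over the 19 group means was most like that of each member were found by Pearson's r over 11561 genes; the groups share animals' hour of day and surgery, so r is a description with no test. Socs3 was most like Slc37a1 (0.959), Lbp (0.947) and Fgg (0.937), and Stat3 like Litaf (0.967), Gm7694 (0.949) and Lbp (0.945). Osmr was most like Tpd52 (0.982), Tnfrsf1a (0.962) and Alpk1 (0.959). For Il6st they were Irak4 (0.961), Slc39a1-ps (0.928) and Dhx8 (0.926), and for Il6ra Hnf4a (0.913), Errfi1 (0.870) and Fkbp5 (0.851). Lifr was most like Slc22a28 (0.952), Slc22a30 (0.944) and Aox3 (0.940). For Il1r1 they were 4933426M11Rik (0.961), Zc3h12a (0.948) and Hip1r (0.946), and for Socs1 Relb (0.917), Zc3h13 (0.917) and Myd88 (0.915). Jak1 was most like BC016423 (0.953), Fam199x (0.934) and Naa25 (0.933), and Jak2 like Gm2026 (0.933), Elf1 (0.933) and Gm14432 (0.922). Among the members themselves r over the same 19 means was 0.924 for Il6st and Stat3, 0.918 for Stat3 and Socs3, 0.875 for Osmr and Socs3, and −0.841 for Osmr and Lifr.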

How the data were processed

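The authors trimmed 100 nt single-end reads with Cutadapt and prinseq-lite, mapped them to mm9 with TopHat2 2.0.13 and Bowtie2, handled alignments with SAMtools 0.1.19 and counted them on the transcribed strand over Ensembl 67 genes with featureCounts, sharing multiply mapped reads among their positions. The deposited values are log2 RPKM, with genes of 0 reads set to the lowest value (52.9% of all values). Of 87 labelled samples, 7 (all X60, 3 X4 and 1 X4W) were not analysed here, and 4 of 84 value columns matched no label and were not used. Values were turned back to RPKM and tested with limma 3.58.1 (R 4.3.3, empirical Bayes with a trend) on log2(RPKM + 0.25) in 1 fit of 19 groups and 80 libraries, each taken to be a separate liver, with Benjamini-Hochberg adjustment within a comparison. RPKM steps gave whole reads for a median of 76% of values a library, too few to recover counts, so depth is estimated and no count test was run. The fit was tested on simulated data. Intervals are 95% and unadjusted. The members and gene lists were chosen with earlier results of these data known. From each pathway list the text names at most 4 genes, those with the largest difference at 4 h among expressed genes called, and the ligands; some items are not reported here, and genes named outside this rule are said to be. Likeness was computed with the 3 most similar genes named. Upstream sequences came from RefSeq GRCm38.p6. Alternatives were other pseudocounts, filters and scalings, fits of the compared groups alone, divided replicates, a replicate block and leaving out each library.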

Additional observations from a re-analysis of the deposited data

Results flagged for a closer look

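Of 80 sets of libraries tested (8 groups of 4 to 10 livers by 10 members), 4 held a liver whose gap to its nearest neighbour was large for the range of its group; chance alone flags about 1 in 20. Il1r1 in S4 replicate 1 was 131.7 RPKM, against 79.3 to 86.8 RPKM in the other 4 S4 livers, and Stat3 in C0 replicate 9 was 4.04 RPKM, against 7.41 to 9.50 RPKM in the other 8. Socs3 in S1 replicate 6 was 2.35 RPKM, against 1.44 to 1.60 RPKM in the other 5, and Lifr in X48 replicate 2 was 9.63 RPKM, against 11.6 to 12.5 RPKM in the other 4. The PH against sham difference of Lifr changed between 4 h and 10 h by −1.36 on the log2 scale, by the interaction test in limma: post-PH livers were higher than sham livers at 4 h and lower at 10 h.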

How the results depend on the processing

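Leaving out 1 library turned the direction of none of 1230 values of called members and ended 77 of those calls. The counts of members called then ranged from 0 to 2 in C4, 1 to 3 in S1, 5 to 8 in S10, 3 to 3 in S20, 4 to 6 in S48, 3 to 4 in X1, 7 to 7 in X10, 7 to 8 in X20 and X48, 8 to 8 in X36, 5 to 7 in X72, 7 to 7 in X44 and 4 to 5 in X1W against C0, from 9 to 10 in S4, 9 to 9 in X4 and 7 to 9 in X28 against C4, and 0 to 0 in X4W against C4W. Between post-PH and sham livers they ranged from 0 to 0 at 1 h, 0 to 1 at 4 h, 0 to 1 at 10 h, 0 to 2 at 20 h and 1 to 2 at 48 h, and for the change of this difference 0 to 0 from 1 to 4 h, 0 to 2 from 4 to 10 h, 0 to 0 from 10 to 20 h and 0 to 1 from 20 to 48 h. The counts without 1 library that differed most were 0 in X20 against S20 without S20 replicate 1 or 2 and 1 without X20 replicate 6, 1 in X48 against S48 without S48 replicate 1 or 2, and 1 in S1 against C0 without C0 replicate 9 or S1 replicate 3. Among the changes of the difference from 4 to 10 h, the count was 0 without S4 replicate 1, S10 replicate 1, S10 replicate 2 or X4 replicate 6 and 2 without S4 replicate 5, X4 replicate 5 or X10 replicate 6.

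With only the groups compared in the fit, counts were 0 in C4, 1 in S1, 3 in S48 and 2 in X1 against C0, and 1 each in X4, X10 and X20 against sham. With no filter they were 1 in C4 against C0 and 0 for the change from 4 to 10 h. A filter of mean log2 RPKM above 0 left out Osmr and Socs1 and gave 1 in X20 and 1 in X48 against sham, since fewer members were tested. A pseudocount of 1 gave 1 in X20 against S20, and scaling to the same median gave 3 in X1W against C0 and 1 for the change from 20 to 48 h. Against C0 replicates 1 to 3 the counts were 4 in S1 and 5 in S20, against C0 replicates 4 to 6 they were 1 in S1, 3 in S48, 2 in X1 and 5 in X36, and against C0 replicates 7 to 9 they were 0 in C4, 5 in S1 and 6 in S20. Replicates 1 to 3 of both groups gave 5 in S20 against C0 and 1 in both X10 and X20 against sham, and so did post-PH replicates 1 to 3 against all sham livers in the last 2; the latter choice was made after seeing the data. Replicates 4 to 6 of both groups gave 0 in S1, 2 in X1 and 4 in X36 against C0 and 1 in X1 against S1. The cause of these differences was not tested.

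Directions turned only where libraries were divided by replicate number. Against C0 replicates 4 to 6, Il6ra was at −0.75 in S1, −0.65 in S10, −1.13 in S20, −0.46 in S48, −0.48 in X1, −1.08 in X10, −0.78 in X20, −0.56 in X36, −0.92 in X44, −0.67 in X48 and −0.99 in X72, and Il1r1 at −0.33 in S1; with C0 replicates 4 to 6 in place of C4, a control added after seeing the data, Il6ra was at −0.58 in S4, −0.66 in X4 and −1.11 in X28. Within replicates 4 to 6 of both groups, Il6ra was at −0.69 in X1, −0.97 in X10, −0.59 in X20 and −0.90 in X48, and Il1r1 at −0.92 in S1. Against C0 replicates 7 to 9, Il6ra was at 1.12 in X1W and 0.095 in C4. Against C0 replicates 1 to 3, Lifr was at −0.043 in X1 (−0.0015 within replicates 1 to 3 of both groups) and Il1r1 at 0.98 in X1W (0.98 again).

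Replicate numbers did not pair the samples: deviations of same-numbered livers correlated at −0.186 to 0.296, and in no comparison was every pair over 0.1. A replicate block gave counts of 1 in S1 and 2 in X1 against C0, 1 in X4 and 1 in X10 against sham, 2 for the change from 4 to 10 h and 1 for that from 20 to 48 h, and counts within 1.5 times in the other comparisons. The comparison of X60 with C0 was not run, since X60 was not analysed here. Depth limits Socs1 and Osmr the most.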

Other observations

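Other genes of the pathway lists also differed between post-PH and sham livers at 1 h and 48 h; those named here were picked after their values were seen. At 1 h, 3 genes of the IL-1 and TNF systems were called higher in post-PH livers by limma, where 0.65% of all genes were called in either direction. Tnfrsf1b, a TNF receptor gene, was at 30.3 ± 3.91 RPKM (SD, n = 6) in X1 and 17.2 ± 4.46 RPKM (n = 6) in S1, a log2 difference of 0.83 (adjusted p = 0.00306) with X1 livers at 25.1 to 34.7 RPKM above S1 livers at 11.9 to 23.7 RPKM. Il1a, the gene for IL-1α, was at 2.28 ± 0.988 RPKM against 0.902 ± 0.195 RPKM (1.06, adjusted p = 0.0391), and Il1r2, the decoy receptor gene, at 0.450 ± 0.192 RPKM against 0.135 ± 0.0724 RPKM (0.84, adjusted p = 0.0301). Summed neutrophil markers were 9.02 to 20.3 RPKM in X1 and 2.74 to 12.2 RPKM in S1, with Ly6g at 0 in every X1 library, and their part in these differences was not tested.

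At 48 h Socs2, an inhibitor of growth hormone signalling through STAT5, was at 1.38 ± 0.365 RPKM (n = 5) in X48 and 5.27 ± 2.25 RPKM (n = 3) in S48 (−1.69, adjusted p = 0.021), while Stat5a was higher, at 1.91 ± 0.457 RPKM against 1.14 ± 0.359 RPKM (0.65, adjusted p = 0.011). The hepcidin gene Hamp, which limits iron export into the blood, was at 506 ± 280 RPKM in X48 and 1482 ± 816 RPKM in S48 (−1.65, adjusted p = 0.00307). Its copy Hamp2 was at 1.25 ± 0.519 RPKM against 13.4 ± 6.18 RPKM (−3.15, adjusted p = 3.77e-07), with no overlap between the groups. In the same comparison Socs3 was at −0.68 and Stat3 at 0.13, and neither was called.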
